A study of Mus musculus with 57 samples.

Results

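Transcript levels of 10 genes of glyceroneogenesis and of pyruvate entry into mitochondria were described in adipose tissue of mice carrying the R707W allele of Mfn2, a mitochondrial fusion protein, and of wild-type (WT) mice. The genes were chosen by symbol for their roles, with earlier results of these data known: Pck1, Pck2, Pcx, Gpd1, Aqp7, Pdha1, Pdk1, Pdk2, Pdk4 and Pdp2, which are 10 of the 52853 genes with counts. Knock-in (KI) mice were homozygous for the allele, which every tissue carries, and descended from a single founder on a C57BL/6J background. All mice were male, were 5 weeks old at the start, and then received a high-fat diet (HFD, 45% of kcal as fat) or chow for 6 months. Inguinal white adipose tissue (WAT) was sequenced from 8 KI and 8 WT mice on HFD and from 6 KI and 7 WT mice on chow, and brown adipose tissue (BAT) from 6 KI and 6 WT mice on HFD. For inguinal WAT on HFD the labels name 2 technical replicates per mouse, and the counts hold 1 column per mouse, so every n is a number of mice.

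White fat cells have little glycerol kinase, which brown fat cells express more, and mostly build the glycerol 3-phosphate backbone of triglyceride from glucose or, when glucose is short, from pyruvate and lactate. In this second route, glyceroneogenesis, pyruvate carboxylase (Pcx) makes oxaloacetate in mitochondria and a phosphoenolpyruvate carboxykinase turns it into phosphoenolpyruvate, either in the cytosol (Pck1) or inside mitochondria (Pck2). Gpd1 reduces dihydroxyacetone phosphate to glycerol 3-phosphate, and Aqp7 is the channel through which glycerol leaves fat cells. Pyruvate that is oxidised instead passes the pyruvate dehydrogenase complex, whose catalytic subunit Pdha1 is switched off by the kinases Pdk1, Pdk2 and Pdk4 and switched on again by phosphatases such as Pdp2.

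Total counts were 17572752 to 25680411 per mouse for inguinal WAT on HFD, 8668279 to 11720458 on chow and 8042591 to 10522554 in BAT. The lowest count of any member in any mouse was 123, for Pdp2. Ucp1, which defines brown adipocytes, was at 4164 to 8515 CPM (counts scaled to the same total in every library) in BAT and at no more than 1.77 CPM in inguinal WAT. The KI transcript of Mfn2 carries the R707W codon and silent changes upstream of it, which need not alter its level. Mfn2 had KI medians of 206, 231 and 440 CPM against WT medians of 155, 192 and 349 CPM (HFD-fed inguinal WAT, chow-fed inguinal WAT and BAT). It was not called in any of these comparisons (adjusted p = 0.0114, 0.084 and 0.113, edgeR). Some libraries were rich in markers of another cell type. The skeletal muscle markers Acta1, Myh1, Myh4, Mylpf and Ckm summed to 46800 CPM in KI mouse 4 on chow, and the lymphocyte markers to 514 CPM in KI mouse 2 on HFD, while WT mouse 4 on chow had the highest sum of epithelial markers, 123 CPM. In all, 10 of the 41 libraries passed a limit of 1000 CPM for muscle markers or 100 CPM for lymphocyte or epithelial markers, and each count of members is also given without them where it changed.

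Levels are printed as CPM per kilobase of gene length, normalised over all 41 columns. On this scale Gpd1 was the most abundant member in BAT, with group means of 2814 in WT and 2667 in KI mice, and Pck1 was the most abundant in each inguinal WAT group of KI mice and in WT mice on chow. In WT inguinal WAT on HFD the mean level of Gpd1, 295 ± 67.3 (SD, n = 8), and that of Pck1, 257 ± 66.6 (SD, n = 8), were close. Pck2, Pdk1 and Pdp2 were the least abundant, at group means of 1.47 to 12.3. For Gpd1, Pdha1, Pdk2, Pdk4 and Pdp2 both BAT groups stood above every inguinal WAT mouse. Adjacent groups in the order of Pck1, Pck2, Pcx, Aqp7 and Pdk1 means overlapped in every case.

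**Figure D1:**
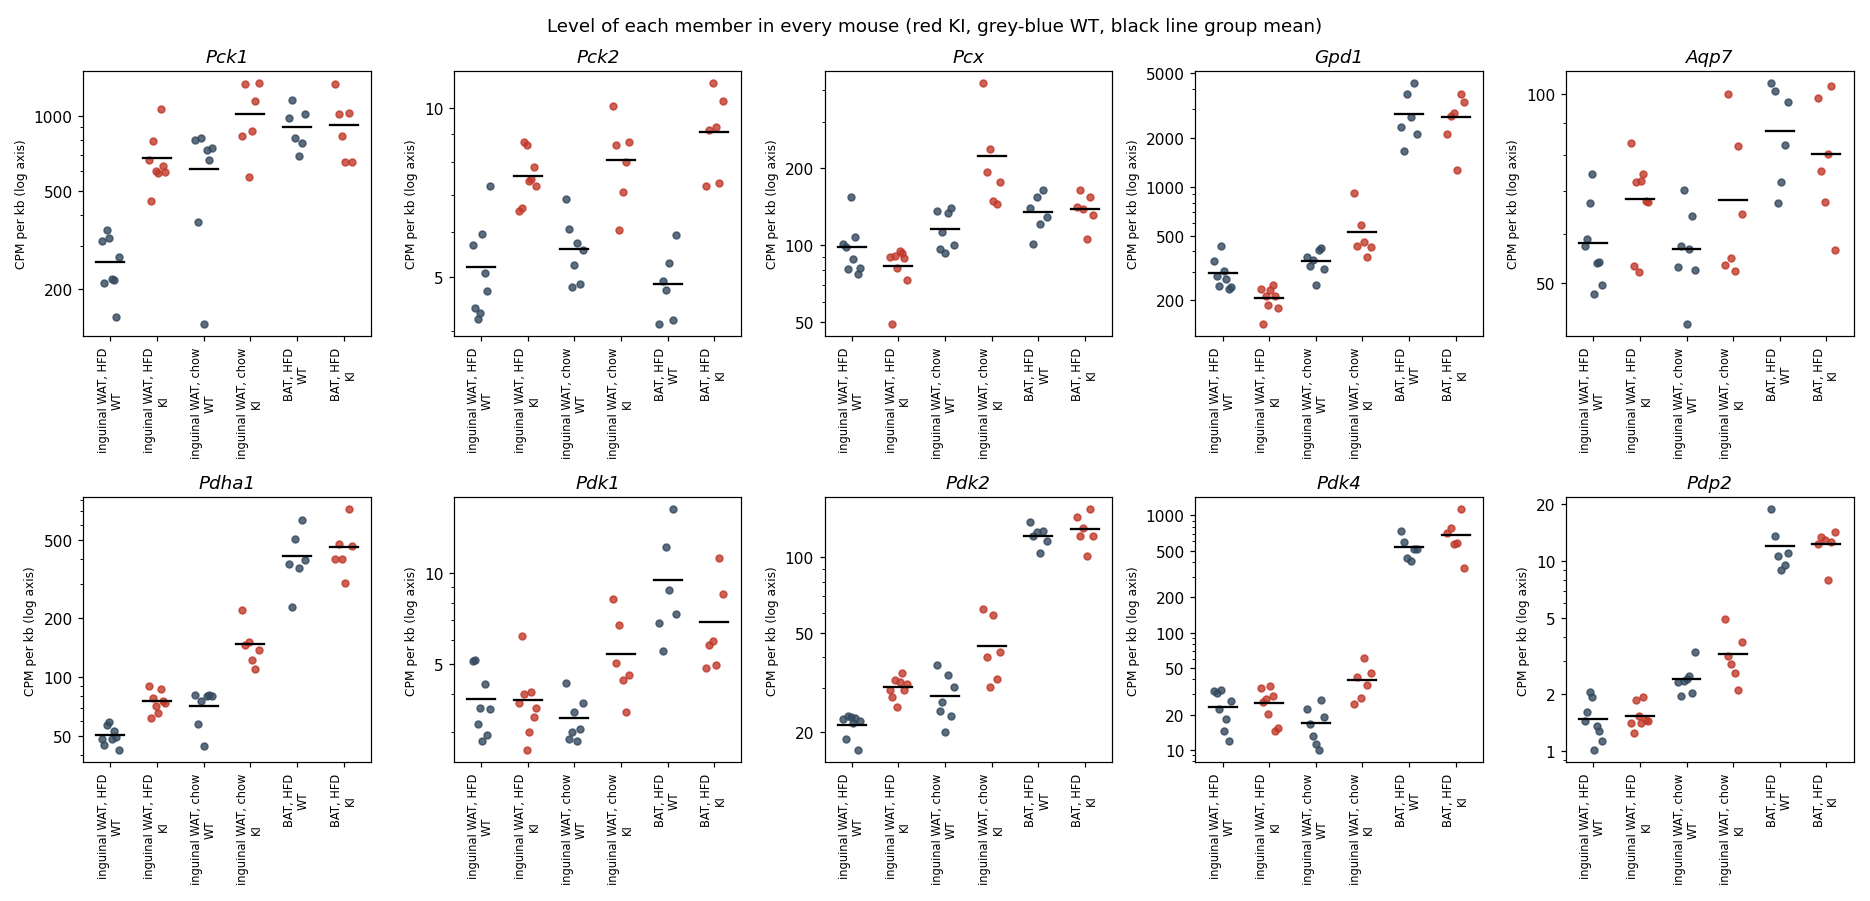
Level of each of the 10 members in every mouse, as CPM per kilobase on a logarithmic axis, for the 6 groups along the horizontal axis, with KI mice in red, WT mice in grey-blue and a black line at each group mean. Pck1 in inguinal WAT on HFD lay between 454 and 1073 in KI and between 155 and 346 in WT mice, and Pdk4 was at 358 or more in every BAT sample and at 61.4 or less in every inguinal WAT sample.

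The first comparison asked how the members differed between KI and WT inguinal WAT after HFD. Pck1, Pck2, Pdha1 and Pdk2 were higher in KI mice and Gpd1 was lower, so that 5 of 10 members were called at an adjusted p below 0.01, against 11.5% of the 16471 genes tested (edgeR's quasi-likelihood test with Benjamini-Hochberg adjustment, n = 8 per genotype). The median log2 fold change of the members was 0.17, beside 0.01 over all genes tested. In bulk tissue, fewer cells of a type and less RNA per cell cannot be told apart.

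Pck1 had a lowest, median and highest level of 454, 614 and 1073 CPM per kilobase in KI mice and of 155, 245 and 346 in WT mice. Every KI mouse was above every WT mouse. The difference was 1.40 ± 0.18 on the log2 scale, a 2.63-fold higher level in KI mice (SE; adjusted p = 1.56e-05, edgeR). It was the largest change of the 10 members in this comparison.

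Pck2 reached 6.55, 7.43 and 8.69 CPM per kilobase in KI mice (lowest, median and highest) and 4.2, 4.9 and 7.26 in WT mice. The groups overlapped through WT mouse 8, and 6 of 8 KI mice lay above all WT mice. The log2 fold change was 0.55 ± 0.10 (adjusted p = 0.00102, edgeR). Without the 5 marker-rich libraries of this comparison it was 0.50, with an adjusted p of 0.0173, and was not called.

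Pck1 lies at chr2:173153048-173159273 (+) and Pck2 at chr14:55540266-55551242 (+) of GRCm38, and the tables give them lengths of 3429 and 7806 bases. The length of Pck2 is the union of the exons of 13 transcripts, of which 5 retain introns, while its transcript with the longest coding sequence has 3400 bases, so its level per kilobase is understated. The 120 bases just before each gene model are shown because the comparison turns on these paired enzymes, from RefSeq's promoter windows (GRCm38.p6). Capitals mark a match, on either strand, to TNACGTCA (a cAMP response element) or to TGATGNAA (the element bound by Atf4).
Pck1, chr2:173152928-173153047, + strand: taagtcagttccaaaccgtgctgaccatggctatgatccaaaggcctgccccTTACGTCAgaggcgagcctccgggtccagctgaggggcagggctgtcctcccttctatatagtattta
Pck2, chr14:55540146-55540265, + strand: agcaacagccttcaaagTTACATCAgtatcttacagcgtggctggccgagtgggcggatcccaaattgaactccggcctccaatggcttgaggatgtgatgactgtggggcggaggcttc
Among the 250 upstream bases of all 32851 windows, 2.52% held TNACGTCA and 3.45% held TGATGNAA. Windows matched 9 of the 10 members by symbol, not Gpd1. Of these 9, TNACGTCA was in the window of Pck1 alone and TGATGNAA in that of Pck2 alone. The motifs were chosen with the Pck1 and Pck2 windows seen, so these matches are no test, and the shares of all windows do not gauge them. AGGTCA, one arm of a nuclear receptor element, was in windows of Aqp7 (14.0% of all windows), and ACGTG, the core of the hypoxia response element, in those of Pcx, Pdk2 and Pdp2 (16.6%). GTAAACA, bound by FoxO factors, was in no member's window (3.17% of all). A match describes these letters and was not tested as a binding site.

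Gpd1 was at 143, 213 and 248 CPM per kilobase in KI mice (lowest, median and highest) and at 234, 278 and 433 in WT mice. The groups overlapped, with no KI mouse above the range of WT mice. The log2 fold change was -0.51 ± 0.13 (adjusted p = 0.0095, edgeR), just inside the threshold, and it was not called in 12 of the 16 fits that left out 1 mouse (adjusted p 0.0104 to 0.0218 in these). An antisense gene, Gm16537, covers 6960 bases of Gpd1 and had a log2 fold change of -0.53, and the strand setting of the counting is not given in the sources used here, so reads of the 2 genes cannot be told apart.

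Pdha1 levels were 61.7, 74.9 and 90.2 CPM per kilobase in KI mice and 42.4, 49.2 and 59.2 in WT mice, as lowest, median and highest. All KI mice lay above all WT mice. Its log2 fold change was 0.59 ± 0.09 (adjusted p = 8.79e-05, edgeR), and it was not called in the fit of all 6 groups (adjusted p = 0.0104). Map3k15, which overlaps the last 1143 bases of Pdha1 on the opposite strand, changed by 0.55 on the log2 scale. Reads within this shared stretch cannot be told apart, while the length of Pdha1 used here is 3734 bases.

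Of the kinases that switch off Pdha1, Pdk2 was called and Pdk1 and Pdk4 were not. Pdk2 ranged from 25.3 over a median of 30.4 to 34.6 CPM per kilobase in KI mice and from 16.9 over 22.4 to 23.1 in WT mice. The genotypes did not overlap, and the log2 fold change was 0.51 ± 0.08 (adjusted p = 0.000103, edgeR). Pdk1 had a log2 fold change of 0.00 ± 0.17 and Pdk4 one of 0.11 ± 0.24, with overlapping groups (adjusted p = 0.995 and 0.812, edgeR). The phosphatase Pdp2 was at 1.24 to 1.92 CPM per kilobase in KI and 1.01 to 2.06 in WT mice (log2 fold change 0.07 ± 0.14). Pcx, at -0.25 ± 0.14, and Aqp7, at 0.24 ± 0.11, were not called either (adjusted p = 0.242 and 0.123, edgeR).

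Other measures moved with genotype in the same libraries. Mitochondrially encoded genes took a median of 2.52% of counts in KI and 9.91% in WT mice, and leaving these genes out kept the same 5 members called. Of the 6 adipocyte markers, Lipe and Pnpla2 were higher (log2 fold change 0.54 and 0.46), Adipoq was lower (-0.85) and 3 were not called, and their summed level was 23541 to 33181 CPM in KI and 22591 to 36287 CPM in WT mice. Of the 5 brown adipocyte markers 3 could be tested, and Cidea and Cox8b were higher in KI mice, with the 5 together at 25.1 to 56.6 CPM against 12.2 to 30.5 CPM and Ucp1 at no more than 1.77 CPM. None of the macrophage, lymphocyte, muscle, fibroblast and endothelial markers tested was called. The part of these shifts in the members' changes was not tested. Without the marker-rich libraries 3 members were called, Pck1, Pdha1 and Pdk2.

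**Figure D2:**
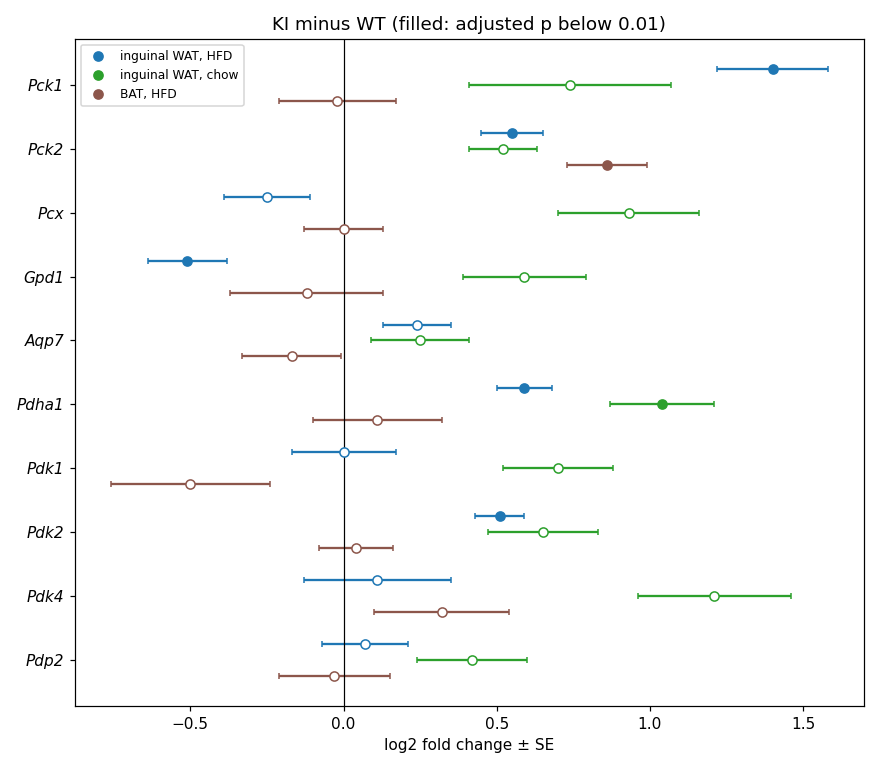
Log2 fold change of KI against WT mice for each member (points, with bars of 1 SE) in inguinal WAT on HFD, inguinal WAT on chow and BAT on HFD, filled where the adjusted p is below 0.01. Pck2 lay at 0.55, 0.52 and 0.86 in the 3 comparisons, whereas Pck1 lay at 1.40, 0.74 and -0.02.

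The same genotypes were then compared in inguinal WAT on chow. Only Pdha1 was called, 1 of 10 members, against 3.23% of the 14629 genes tested (n = 6 KI and 7 WT). All 10 members had positive log2 fold changes, with a median of 0.68 beside -0.01 over all genes tested, and 9 had an unadjusted p below 0.05, as had 24.3% of all genes tested. The number of members called moved with the processing, from 0 with mouse number as a block to 6 with DESeq2.

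Pdha1 was at 110, 141 and 220 CPM per kilobase in KI mice (lowest, median and highest) and at 44.4, 80.4 and 80.9 in WT mice. The genotypes did not overlap. The level was 2.06-fold higher in KI mice, a log2 fold change of 1.04 ± 0.17 (adjusted p = 0.00202, edgeR), and Map3k15 changed by 1.03. With mouse number as a block the log2 fold change was 1.07 and the adjusted p 0.0113.

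Pdk4 and Pck2 missed the threshold narrowly. Pdk4 levels were 24.7, 39 and 61.4 CPM per kilobase in KI mice and 9.94, 16.8 and 26.9 in WT mice, and 5 of 6 KI mice lay above all WT mice (log2 fold change 1.21 ± 0.25, adjusted p = 0.0101, edgeR). The highest KI value of Pdk4 came from mouse 4, the muscle-rich library. Pck2 was at 6.05 to 10.1 CPM per kilobase with a median of 8.3 in KI mice and at 4.78 to 6.89 with a median of 5.57 in WT mice (0.52 ± 0.11, adjusted p = 0.011, edgeR). Single mice moved both across the threshold: Pck2 was called without KI mouse 3 (adjusted p = 0.00401) or WT mouse 1 (0.00721), and Pdk4 without KI mouse 1 (0.00805) or WT mouse 6 (0.00631). Without the 3 marker-rich libraries Pck2 was called, with an adjusted p of 0.00399, and Pdk4 had 0.0339.

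Pck1 was not called on chow, although 5 of 6 KI mice lay above all WT mice. Its levels were 569, 1013 and 1361 CPM per kilobase in KI mice and 145, 727 and 820 in WT mice. The lowest value belonged to WT mouse 4, which had the highest sums of epithelial and macrophage markers (123 and 1844 CPM). The log2 fold change was 0.74 ± 0.33 (adjusted p = 0.188, edgeR), and over the alternatives its adjusted p ran from 0.0479 to 0.309.

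Pcx reached 144, 184 and 427 CPM per kilobase in KI mice and 93, 112 and 139 in WT mice, without overlap, yet was not called (0.93 ± 0.23, adjusted p = 0.0218, edgeR). KI mouse 1 held the highest level of Pcx, of Gpd1, at 911, of Pdha1, at 220, and of Cidea, at 464 CPM. It was also the highest for Pck2 (10.1), Pdk1 (8.23), Pdk2 (62.2) and Pdp2 (4.94). Without this mouse the log2 fold changes of these members were the lowest of the fits with 1 mouse left out. They were 0.65 for Pcx, 0.39 for Gpd1, 0.91 for Pdha1, 0.46 for Pck2, 0.56 for Pdk1, 0.55 for Pdk2 and 0.27 for Pdp2. With all mice Gpd1 was at 0.59 ± 0.20, Pdk1 at 0.70 ± 0.18, Pdk2 at 0.65 ± 0.18, Pdp2 at 0.42 ± 0.18 and Aqp7 at 0.25 ± 0.16, none of them called, although Pdk1 was called without KI mouse 5 (0.80, adjusted p = 0.00774). Mitochondrially encoded genes took a median of 1.97% of counts in KI and 3.77% in WT mice. Beside these values, the 5 brown adipocyte markers summed to 148 to 856 CPM in KI and 35.8 to 116 CPM in WT mice, with Ucp1 at no more than 0.895 CPM. Their part in the members' values was not tested.

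In BAT from HFD-fed mice the member called was Pck2, which was also called in inguinal WAT on HFD. Pck2 was higher in KI mice and was the only one of the 10 members called, against 1.83% of the 13267 genes tested (n = 6 per genotype). Its levels were 7.27, 9.19 and 11.1 CPM per kilobase in KI mice and 4.11, 4.82 and 5.93 in WT mice. The genotypes did not overlap. The log2 fold change was 0.86 ± 0.13, a 1.81-fold higher level (adjusted p = 0.000919, edgeR), and Pck2 was called in each of the 12 fits without 1 mouse and in the 7 other settings, with adjusted p from 8.58e-08 to 0.00661.

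Pck1 in BAT was at 652, 928 and 1349 CPM per kilobase in KI mice and at 692, 899 and 1161 in WT mice. The groups overlapped almost wholly, and the log2 fold change was -0.02 ± 0.19 (adjusted p = 0.959, edgeR). The other members lay between -0.50 ± 0.26 for Pdk1 (adjusted p = 0.256) and 0.32 ± 0.22 for Pdk4 (adjusted p = 0.404), and the member median was -0.01, as over all genes tested. WT mice 1 and 2 carried muscle markers at 2000 and 2220 CPM, and without them Pck2 had a log2 fold change of 0.83. Mitochondrially encoded genes took a median of 11.2% of counts in KI and 16.19% in WT mice, and of all markers tested only the progenitor gene Pi16 was called (-1.62 ± 0.26). Their part in the change of Pck2 was not tested.

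Whether the genotype difference itself differed between BAT and inguinal WAT on HFD was tested as an interaction, in which 2.46% of 16201 genes and 0 of 10 members were called. At an unadjusted p below 0.05 there were 3 members, beside 22% of all genes, and DESeq2 called 1, Pck1. Pck1 had an interaction of -1.37 ± 0.36 on the log2 scale (adjusted p = 0.0138 with edgeR and 0.00316 with DESeq2). It was called without KI mouse 1 in BAT (-1.51, adjusted p = 0.00763) or KI mouse 2 in inguinal WAT (-1.43, adjusted p = 0.00985). That of Pck2 was 0.36 ± 0.17 (adjusted p = 0.196, edgeR).

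The balance of the transcripts of the cytosolic and the mitochondrial enzyme was therefore taken within each mouse. It was the log2 ratio of Pck1 to Pck2 counts per kilobase with 0.5 added to each count. In inguinal WAT on HFD it was 6.10, 6.34 and 7.17 in KI mice and 5.03, 5.51 and 6.36 in WT mice (lowest, median and highest). The groups overlapped: KI mice 1, 3 and 6 (6.67, 6.51 and 7.17) lay above every WT mouse, and the other KI mice lay within the WT range. The mean was 6.44 ± 0.35 in KI and 5.61 ± 0.49 in WT mice (SD), and KI minus WT was 0.84 ± 0.21 (SE; n = 8 per genotype, exact permutation test, 2-sided p = 0.00233, adjusted over 3 comparisons 0.00699).

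In BAT the ratio differed the other way. It was 5.98, 6.52 and 7.53 in KI mice and 7.03, 7.48 and 7.90 in WT mice, and the groups overlapped. The highest WT ratios, 7.90 and 7.89, were those of mice 1 and 2, the muscle-rich libraries of BAT. The ratio was not compared without both of them. KI minus WT was -0.90 ± 0.29 (n = 6 per genotype, exact permutation test, 2-sided p = 0.0173, adjusted over 3 comparisons 0.026). On chow the ratio was 6.93 ± 0.39 in KI and 6.59 ± 0.92 in WT mice (SD) and the difference was 0.34 ± 0.38 (n = 6 and 7, exact permutation test, 2-sided p = 0.483), with the lowest ratio, 4.78, again in WT mouse 4, and without that mouse the difference was 0.04. As geometric means of the ratio per kilobase, Pck1 stood 87.1-fold above Pck2 in KI and 48.7-fold in WT inguinal WAT on HFD, and 99.5-fold and 185-fold in BAT. With the length of the transcript of the longest coding sequence in place of the table's length, these ratios were 48.9, 27.3, 55.8 and 104, and the differences between genotypes stayed as they were, since length cancels.

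**Figure D3:**
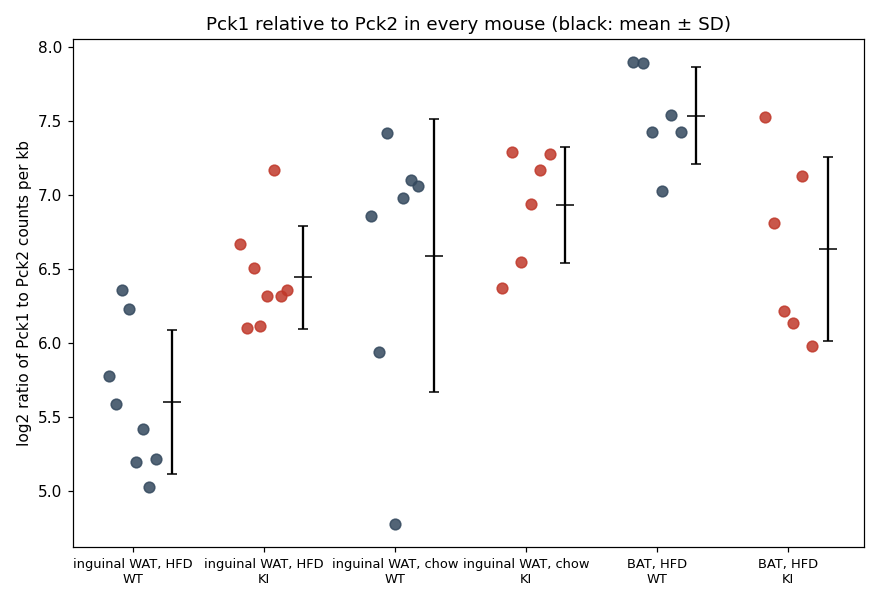
Log2 ratio of Pck1 to Pck2 counts per kilobase in every mouse, by group, with KI mice in red, WT mice in grey-blue and black bars for the mean ± SD. In HFD-fed inguinal WAT the KI ratio was the higher (means 6.44 and 5.61) and in BAT the lower (6.64 and 7.53), and 1 WT mouse on chow lay at 4.78.

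Diet was compared within each genotype in inguinal WAT, in 1 fit of all 6 groups. The chow and HFD libraries are separate tables, and diet cannot be told apart from whatever else differed between them, such as depth. In WT mice Pck1 and Pdp2 were lower on HFD, 2 of 10 members. Of the 16201 genes tested, 28.2% were called in either direction and 15.6% were lower. Pck1 had a log2 fold change of -1.25 ± 0.24 between the levels given above, medians of 245 on HFD and 727 on chow (adjusted p = 6.63e-05, edgeR), and the ranges overlapped through WT mouse 4. Pdp2 fell from a median of 2.35 to 1.39 CPM per kilobase (-0.71 ± 0.17, adjusted p = 0.000754, edgeR). Pdha1 (-0.50 ± 0.16) and Pdk2 (-0.39 ± 0.13) were just outside the threshold (adjusted p = 0.0138 and 0.0141, edgeR). Both were called without the marker-rich libraries, or without WT mouse 4 on chow alone (adjusted p = 0.00347 and 0.00404), and Pdk2 also without WT mouse 6 on chow (0.00976).

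In KI mice 5 of 10 members were called, all lower on HFD, against 31.0% of genes called in either direction and 17.3% lower. Pcx fell most, by 1.42 ± 0.18 on the log2 scale (adjusted p = 4.73e-08, edgeR), from medians of 184 on chow to 89.4 on HFD. Gpd1 fell by 1.36 ± 0.21, from medians of 445 to 213, Pdp2 by 1.07 ± 0.17, Pdha1 by 0.97 ± 0.17 and Pdk2 by 0.55 ± 0.13. Gm16537 and Map3k15, which overlap Gpd1 and Pdha1, were lower too (-1.47 and -1.29). The HFD and chow ranges did not overlap for Pcx, Gpd1, Pdha1 and Pdp2, as for 17.9% of all genes. Pck1 was not called in KI mice (-0.60 ± 0.25, adjusted p = 0.0492, edgeR). Pck2 and Aqp7 differed little between diets in either genotype, with log2 fold changes of -0.10 to 0.03. Of the 5 brown adipocyte markers, 4 were lower on HFD in KI mice: Elovl3 (-4.25), Cox8b (-3.82), Cidea (-3.38) and Cox7a1 (-2.31). In WT mice 2 were lower, Cox8b (-2.44) and Cidea (-1.89). The part of these markers in the members' diet differences was not tested.

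The difference between these diet effects, which is the same as the difference of the genotype effect between diets, was called for Pcx alone, 1 of 10 members against 0.889% of genes. The interaction was -1.19 ± 0.25 on the log2 scale (adjusted p = 0.00518, edgeR). It was called in 25 of 29 fits with 1 mouse left out. The exceptions were the fits without KI mouse 1 on chow (-0.88, adjusted p = 0.0192), KI mouse 3 on chow (0.0101), WT mouse 3 on chow (0.0101) and WT mouse 4 on HFD (0.0113). Without the marker-rich libraries it was -1.15 with an adjusted p of 0.0319. Gpd1 (-1.12 ± 0.29, adjusted p = 0.0214, edgeR) and Pdk4 (-1.12 ± 0.35, adjusted p = 0.0721, edgeR) were not called. Gpd1 was called by DESeq2 (adjusted p = 0.00562). For Pck1 it was 0.65 ± 0.35 and for Pck2 0.01 ± 0.16. Among the 5 brown adipocyte markers the interaction was called for Elovl3 alone (-8.23 ± 1.41). The median of these markers was -1.45, beside -0.01 over all genes tested, and their part in the members' values was not tested.

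BAT and inguinal WAT of HFD-fed mice were compared within each genotype in the same fit, and tissue likewise cannot be told apart from the table. In WT mice 8 of 10 members were higher in BAT, against 57.8% of genes called in either direction and 28.1% higher. In KI mice 7 of 10 were higher, against 60.9% called in either direction and 29.9% higher. Pdk4 differed most, 22.7-fold in WT and 27.4-fold in KI mice (log2 fold changes 4.51 ± 0.28 and 4.77 ± 0.28), followed in WT mice by Gpd1 at 3.25 ± 0.22, Pdha1 at 3.04 ± 0.18, Pdp2 at 3.04 ± 0.17 and Pdk2 at 2.52 ± 0.14. The ranges of BAT and inguinal WAT did not overlap for any of these 5 genes in either genotype, and they did not overlap for 41% of all genes in WT and 42.2% in KI mice. Pdk1 was also higher in BAT (1.31 ± 0.22 in WT and 0.85 ± 0.22 in KI mice). The overlapping genes Gm16537 and Map3k15 were higher in BAT as well (3.43 and 3.36 in WT, 3.80 and 3.02 in KI mice). Outside the members, the kinase Pdk3 (-1.11 and -1.37) and the phosphatase Pdp1 (-0.60 and -0.51) were lower in BAT of WT and KI mice, both named after their values were seen. Without the marker-rich libraries 7 members were called in WT mice, Aqp7 being lost.

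Pck1 was 3.53-fold higher in BAT than in inguinal WAT of WT mice, without overlap (1.82 ± 0.25, adjusted p = 4.62e-08, edgeR). In KI mice the same difference was 0.45 ± 0.25 (adjusted p = 0.103, edgeR), and the test of the difference between the genotypes is the interaction given above, which was not called. Pck2 was at -0.10 ± 0.12 in WT and 0.26 ± 0.12 in KI mice, and was called in neither. Pcx was called in KI mice (0.75 ± 0.18) and not in WT mice (0.45 ± 0.18), and Aqp7 in WT mice (0.59 ± 0.14) and not in KI mice (0.24 ± 0.14). In WT mice Pcx was called once WT mouse 4 of the inguinal WAT was left out (0.57, adjusted p = 0.00496).

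**Figure D4:**
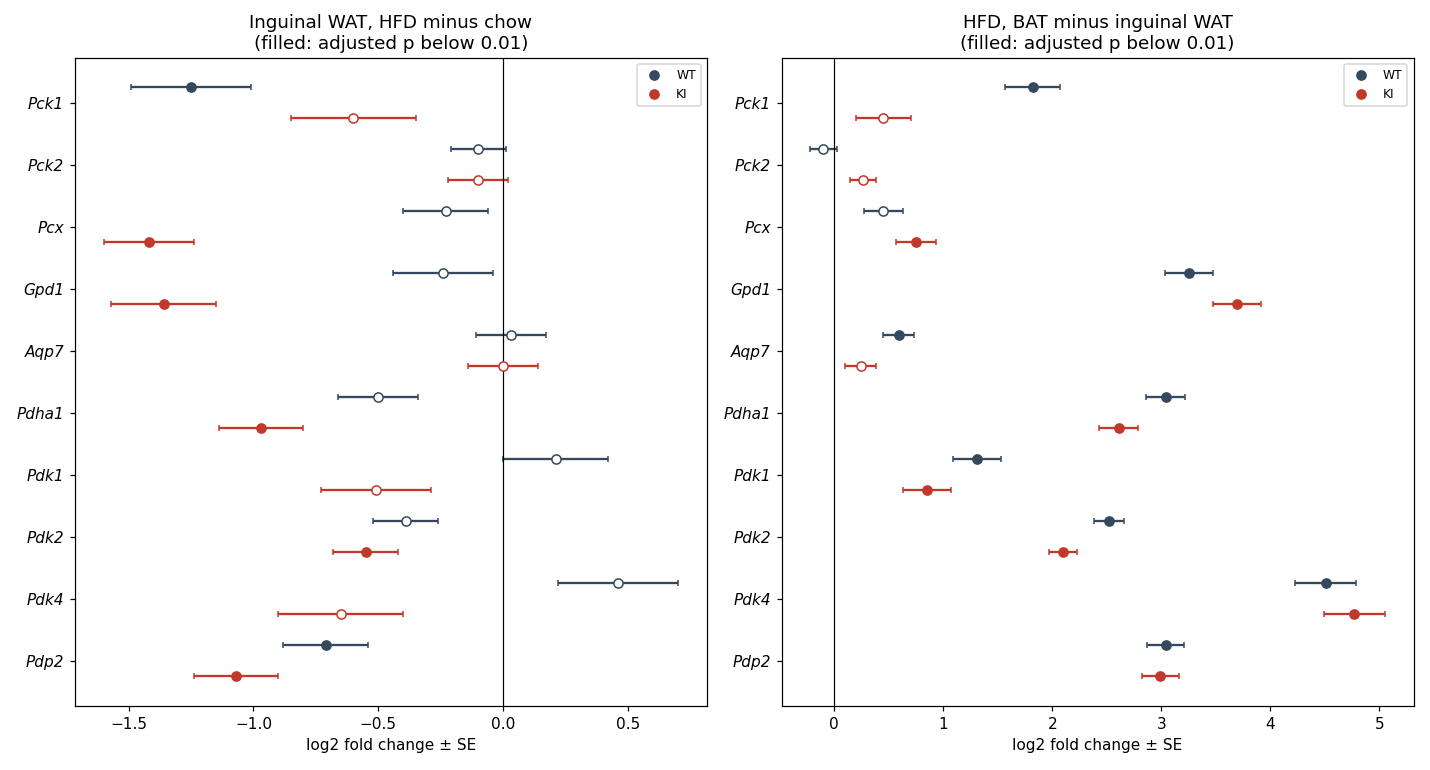
Log2 fold changes of each member (points, with bars of 1 SE) for HFD against chow in inguinal WAT (left) and for BAT against inguinal WAT on HFD (right), with WT mice in grey-blue and KI mice in red, filled where the adjusted p is below 0.01. On the left the KI values of Pcx and Gpd1 lay at -1.42 and -1.36, and on the right Pdk4 lay at 4.51 and 4.77.

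The make-up of the 3 kinases, as shares of their summed level per kilobase, differed by tissue. In BAT Pdk4 made up a median of 79.6% in WT and 83.5% in KI mice, and Pdk2 18.7% and 15.8%. In inguinal WAT on HFD the medians were 48.1% and 42.9% for Pdk4 and 45.2% and 51% for Pdk2, in WT and KI mice. On chow Pdk4 was at 35% in WT and 48.7% in KI mice. Pdk1 was the smallest share in every group, with medians from 0.783% to 7.87%. The lengths used, 7779 bases for Pdk1, 3163 for Pdk2 and 3511 for Pdk4, are unions of exons. The transcripts with the longest coding sequence have 5185, 2246 and 3484 bases. Pdk1 and Pdk2 are thus understated against Pdk4, and shares with transcript lengths were not computed. In WT inguinal WAT on HFD, where Pdk2 and Pdk4 were near, their order may depend on the length used.

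The rest of the pathway was taken from 4 lists chosen with earlier results of these data known. Of 7 tested genes that handle glycerol or glycerol 3-phosphate, 1 was higher and 1 lower in KI inguinal WAT on HFD (list median -0.08, beside 0.01 over all genes). Gpd2, the mitochondrial glycerol 3-phosphate dehydrogenase, was at 34 to 54.5 CPM in KI and 18.5 to 28.9 CPM in WT mice (log2 fold change 1.13 ± 0.11, adjusted p = 6.59e-07, edgeR). On this diet its sign was opposite to that of cytosolic Gpd1, which was called in only 4 of 16 fits with 1 mouse left out. Gk, glycerol kinase, was lower (-0.44 ± 0.11). On chow 1 of 6 was called, again Gpd2 (1.61 ± 0.26, adjusted p = 0.00193, edgeR), and in BAT 0 of 6. Beside these counts, 11.5% of all genes tested were called on HFD, 3.23% on chow and 1.83% in BAT. Gpd1 had the same sign as Gpd2 on chow (0.59 ± 0.20) and was not called.

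Among 10 tested genes of the pyruvate dehydrogenase complex and its control, Pdhb, the partner subunit of Pdha1, was the only one called in inguinal WAT on HFD (0.35 ± 0.09, adjusted p = 0.00878, edgeR). On chow Pdhb (1.53 ± 0.23) and Dlat (0.96 ± 0.15), the acetyltransferase core, were higher in KI mice. The list medians were -0.02 on HFD, 0.31 on chow and 0.14 in BAT, where none was called. Over all genes tested, 11.5% were called on HFD, 3.23% on chow and 1.83% in BAT. The interaction of genotype and diet was called for Dlat (-1.15 ± 0.23, adjusted p = 0.00364, edgeR), a gene named here after its value was seen.

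Of 11 tested genes of pyruvate supply, transport and malic enzymes, 1 was higher and 2 were lower in KI mice on HFD, beside 6.21% and 5.24% of all genes. On chow 4 were higher, beside 1.96% of all genes, and the list median was 0.98. Me3, a mitochondrial malic enzyme, was higher on both diets (1.45 ± 0.19 and 1.69 ± 0.33). On HFD the cytosolic malic enzyme Me1 and the pyruvate carrier subunit Mpc2 were lower (-0.55 ± 0.14 and -0.53 ± 0.08). On chow Pkm, pyruvate kinase, was at 659 to 1936 CPM in KI and 344 to 452 CPM in WT mice (1.59 ± 0.23, adjusted p = 0.000666, edgeR). The other two called on chow, named after their values were seen, were Mpc1 (1.33) and the lactate transporter Slc16a1 (0.98). In BAT 0 of 11 were called.

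Of 14 transcription factors and coactivators known to act on the members, 2 were called in inguinal WAT on HFD, a share near the 11.5% over all genes. Atf4, the effector of the integrated stress response, was at 221 to 303 CPM in KI and 102 to 177 CPM in WT mice (1.06 ± 0.10, adjusted p = 5.35e-07, edgeR). Hif1a, which induces Pdk1 in hypoxia, was lower (-0.32 ± 0.07, adjusted p = 0.00364, edgeR). None of the 14 was called on chow or in BAT, where the list medians were -0.00 and 0.06. Atf4 was near the threshold in both, at 0.60 ± 0.13 on chow (adjusted p = 0.0112, edgeR) and 0.68 ± 0.15 in BAT (adjusted p = 0.0148, edgeR).

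Across diets and tissues the lists are set beside all genes tested, of which 17.3% were lower and 13.7% higher on HFD in KI mice and 15.6% and 12.7% in WT mice. On HFD against chow 8 of the 11 pyruvate supply genes were lower in KI mice (list median -1.42) and 2 in WT mice (-0.31), beside medians over all genes of 0.01 and 0.03. Among these, the interaction of genotype and diet was called for Mpc2 (-1.16 ± 0.25, adjusted p = 0.00539, edgeR) and Pkm (-1.38 ± 0.26, adjusted p = 0.00198, edgeR). Of the 10 pyruvate dehydrogenase genes, 6 were lower and 1 higher on HFD in KI mice, and 1 was higher in WT mice. Of the 7 glycerol genes, 4 were lower and 1 higher in KI mice, and 3 were lower in WT mice. Of the regulators, 4 of 14 were lower and 1 higher on HFD in WT mice, and 3 were lower and 2 higher in KI mice. In BAT against inguinal WAT, 7 of 11 pyruvate supply genes, 7 of 10 pyruvate dehydrogenase genes and 4 of 7 glycerol genes were higher in each genotype, and 1 or 2 of each list were lower, beside 28.1% of all genes higher in WT and 29.9% in KI mice. Gk was among the genes higher in BAT, by 4.23 in WT and 5.33 in KI mice on the log2 scale.

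Genes with the most similar pattern to a member were sought by Pearson's r of log2 CPM over the 41 columns, which share their tissue, diet and table. For Pck1 these were Erbb4 (r = 0.899), Rdx (0.873) and Kctd15 (0.849), and with group means taken off r was 0.79, 0.61 and 0.51. Those of Pck2 were Grina (0.820), Cyb5r1 (0.813) and Trib3 (0.805), with 0.64, 0.28 and 0.26 after group means were taken off. Among the genes most like Pdk4 were Hadhb (0.974) and Slc25a20 (0.974), with 0.29 and 0.33. Among the members, with group means taken off, Gpd1 followed Pdha1 (r = 0.82) and Pcx (0.82) most closely.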

How the data were processed

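RNA of inguinal WAT and BAT was sequenced from TruSeq RNA libraries on a NovaSeq. Per the labels, the authors trimmed with cutadapt, aligned to GRCm38 with STAR, sorted with SAMtools and counted with featureCounts, and deposited whole-number counts per gene and mouse in 3 tables. Versions and strand setting are not given in the sources used here. Of 54838 entries, 1884 without count were left out and identical entries of 99 symbols were merged.

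Genotypes were compared within each table with edgeR 4.0.16 in R 4.3.3 (TMM, filterByExpr, robust quasi-likelihood, no block), and diet, tissue and interaction contrasts in 1 fit of all 6 groups. A gene was called at an adjusted p below 0.01. Each SE is the size of the log2 fold change divided by the root of its F statistic. The Pck1 to Pck2 ratio was compared by exact permutation tests (scipy). Alternatives were DESeq2 1.42.0, RLE factors, no filter, mitochondrially encoded genes left out, 1 fit of all groups, a replicate block, an adjusted p below 0.05 and each mouse left out. Fits without marker-rich libraries, and without single mice in the fit of all groups, were added after values had been seen. Scripts were tested on simulated counts.

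The members and lists were chosen with earlier results of these data known, and the motifs with the Pck1 and Pck2 windows seen. Named were all members and Mfn2, per list and genotype comparison up to 2 called genes with the largest rise and 2 with the largest fall, the 3 genes most like Pck1, Pck2 and Pdk4, and markers that moved with a result. 1 gene that this rule names is not reported here.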

Additional observations from a re-analysis of the deposited data

Results flagged for a closer look

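Within 66 groups of mice (10 members and the Pck1 to Pck2 ratio in 6 groups), 5 had a mouse far from the others by Dixon's criterion, which chance alone meets in about 1 group of 20. Pcx was at 427 CPM per kilobase in KI mouse 1 on chow, with the next mouse at 237, and at 153 in WT mouse 4 on HFD, with the next at 107. Pdk1 was at 6.23 in KI mouse 2 on HFD, the library with the highest lymphocyte markers (514 CPM), with the next at 4.04. Pdp2 was at 7.92 in BAT of KI mouse 4, below the next at 12.4, and at 3.31 in WT mouse 7 on chow, above the next at 2.5. The genotype effect on Pcx differed between diets by the interaction, at -1.19 on the log2 scale (adjusted p = 0.00518, edgeR), and both inguinal mice far from the others in Pcx enter that test.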

How the results depend on the processing

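Counts of members called moved by more than 1.5 times as follows. For KI against WT on HFD, 5 became 3 in 1 fit of all 6 groups and 3 without marker-rich libraries, and 4 to 5 with 1 mouse left out. On chow, 1 became 2 with RLE factors, 6 with DESeq2 or at an adjusted p below 0.05, 5 in 1 fit of all 6 groups, 2 without marker-rich libraries, 1 to 2 with 1 mouse left out, and 0 with the replicate block. For HFD against chow in WT mice, 2 became 4 with DESeq2, at an adjusted p below 0.05 or without marker-rich libraries, and 2 to 4 with 1 mouse left out. For genotype by diet, 1 became 2 with DESeq2 or at an adjusted p below 0.05, 0 without marker-rich libraries, and 0 to 1 with 1 mouse left out. For genotype by tissue, 0 became 1 with DESeq2 or at an adjusted p below 0.05, and 0 to 1 with 1 mouse left out. On simulated counts DESeq2 made more false calls than its threshold names, while edgeR kept near it. The cause of these shifts was not tested. The genotype difference of the Pck1 to Pck2 ratio kept its direction and, before adjustment, its side of 0.05 with 1 mouse left out. It was at 0.74 to 0.95 on HFD, 0.04 (without WT mouse 4) to 0.48 on chow and -1.08 to -0.77 in BAT. In BAT the exact permutation p reached 0.0346 and was not adjusted over the 3 comparisons. The ratio was not compared without the marker-rich libraries.

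Only members near 0 changed sign. Pdk1 on HFD (0.00) was at -0.00 with RLE factors or DESeq2, -0.01 with the block or in 1 fit, -0.02 without marker-rich libraries and -0.15 to 0.08 with 1 mouse left out. Without marker-rich libraries Pdk4 on HFD was at -0.03. In BAT, Pck1 was at 0.02 in 1 fit, 0.14 without marker-rich libraries and -0.17 to 0.08 with 1 mouse left out, Pcx at -0.00 without mitochondrially encoded genes, -0.05 without marker-rich libraries and -0.06 to 0.07 with 1 mouse left out, and Pdp2 at 0.00 with the block, 0.02 in 1 fit, and 0.26 and -0.10 to 0.16 in these last settings. Pdha1 in BAT was at -0.06 without marker-rich libraries and -0.04 to 0.28 with 1 mouse left out, Gpd1 at -0.22 to 0.06 and Pdk2 at -0.00 to 0.10. In the same order of settings, for HFD against chow, Aqp7 was at -0.04 and -0.03 to 0.09 in WT mice and at -0.13 and -0.07 to 0.14 in KI mice. For genotype by diet, Pck2 was at -0.14 and -0.07 to 0.09, and Aqp7 at -0.09 to 0.11 with 1 mouse left out. For genotype by tissue, Pdp2 was at 0.01 with the block, 0.16 without marker-rich libraries and -0.13 to 0.11.

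Mouse numbers are not stated to pair mice, and same-numbered mice did not all deviate together (lowest r -0.26, -0.22 and -0.15 for KI with WT on HFD, on chow and in BAT, -0.15 and -0.07 between tissues). With the replicate block 4, 0 and 1 members were called in these 3 comparisons, and with mouse number across tissues 8 in WT and 6 in KI mice for BAT against inguinal WAT and 0 for genotype by tissue. All genes called on chow fell from 472 to 127 with the block. Depth limited Pdp2 and Pck2 most, with lowest counts of 123 and 190.

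Counts over all genes moved too. On HFD 1886 became 1242 in 1 fit of all groups and 3448 at an adjusted p below 0.05. On chow 472 became 1107 with DESeq2, 1088 in 1 fit and 1252 at 0.05, and in BAT 243 became 717, 834 and 952. For genotype by diet 144 became 358 with DESeq2, 439 at 0.05, 87 without a filter and 53 without marker-rich libraries. For genotype by tissue 399 became 731, 1118, 265 and 251 in the same order, and 180 with the block. With 1 mouse left out the counts were 1460 to 2338, 288 to 497 and 134 to 313 for KI against WT on HFD, on chow and in BAT, and 61 to 269 for genotype by diet.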
